A study of Mus musculus with 9 samples.

Results

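Integrins and laminins join a cell to the matrix around it. Each integrin receptor pairs 1 alpha with 1 beta subunit at the cell surface, and each laminin is a trimer of an alpha, a beta and a gamma chain in the basement membrane. Satellite cells are resident muscle stem cells that lie between the muscle fibre and its basement membrane, where the receptor of Itga7 and Itgb1 binds laminin. The set described here holds 35 genes chosen by symbol, 25 integrin subunits and 10 laminin chains. Of these, 34 were listed among the 22631 genes compared between Mutant and Control, and 33 among the 27775 genes compared between arms abbreviated PT and PUT. Itgax, an alpha subunit of myeloid cells, was listed in neither table, and Itgam, another myeloid subunit, only in the first.

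The series measured RNA of cultured satellite cells from the hindlimb muscles of mice aged 9 weeks, in 9 libraries of 3 groups with 3 libraries each. Control mice were given oil. Mutant mice, deficient in Uhrf1 in satellite cells, and Cre Control mice were given tamoxifen. The tamoxifen was dissolved in corn oil and injected on 5 days to induce recombination by Cre. The labels name no Cre driver and no Uhrf1 allele, and do not say whether Control mice carried either. Control and Mutant cells were grown for 3 days on Matrigel, a basement membrane extract rich in laminin, so matrix was supplied from outside. No protocol is given for the Cre Control libraries, and their comparisons with the other groups were not analysed here. Uhrf1 reads hemimethylated CpG sites and recruits the maintenance DNA methyltransferase to them after replication.

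Gene values came as the authors' comparisons, so no value of a single library stands behind any gene below, and depth per library is unknown for genes. Levels are mean TPM of Control and of Mutant, a transcript abundance scaled by transcript length and library size. Each change is the test estimate, the log2 difference to which the deposited standard error (SE) belongs, with positive values higher in Mutant. A gene is called when its deposited adjusted p is below 0.05. The labels do not state that the 3 libraries of a group are 3 animals, and the p-values may therefore reflect technical spread alone. Since Control received oil and Mutant tamoxifen, effects of tamoxifen and of Uhrf1 loss cannot be told apart. In whole-culture RNA, fewer cells of a type and less RNA per cell cannot be told apart either.

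Uhrf1 itself fell from 118 to 20.4 TPM (estimate −3.12, SE 0.60, adjusted p = 4.01e-06) per the authors' deposited table. Markers of the muscle lineage summed to 3820 TPM in Control and 3586 TPM in Mutant, with 4 of 10 called higher and 2 lower. Myod1 stood at 1018 and 914 TPM and Des at 763 and 892 TPM per the authors' deposited table. Myog, at 589 and 291 TPM (estimate −1.03, SE 0.54), and Myh3, at 172 and 78.6 TPM (−1.14, SE 0.63), were not called per the authors' deposited table. Markers of smooth muscle and pericytes summed to 629 and 661 TPM (2 of 9 higher). Acta2 held 422 and 421 TPM of that sum and Tagln 162 and 172 TPM, neither of them called, per the authors' deposited table. Markers of Schwann cells summed to 522 and 634 TPM (2 of 8 higher), of which Ncam1, also a myoblast gene, held 517 and 627. In the repeat counts deposited for 6 libraries, IAPEz-int, an endogenous retrovirus, took 0.501% (95% Wilson interval 0.491 to 0.511) and 0.675% (0.664 to 0.686) of repeat counts in Control 1 and Control 2. Its share was 13.1% (13.1 to 13.2) in the library labelled Control 3 and 9.29% (9.25 to 9.33), 11.1% (11.1 to 11.2) and 16.3% (16.2 to 16.3) in the Mutant libraries, of 1794698 to 2245124 repeat counts each. These intervals cover counting error only. The library labelled Control 3 thus stood with the Mutant libraries on this measure. The sources used here do not say whether it entered the Control means of genes, and no gene value could be recomputed without it.

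The promoter windows of the called genes are shown first, because CpG sites are where Uhrf1 acts. Of the 35 genes, 23 had RefSeq windows (GRCm38.p6), and the 250 bases before each start were read in the direction of the gene. The windows of 5 called genes that overlapped no annotated exon, 4 of genes higher in Mutant and 1 of Itga3, which was lower, follow 5′ to 3′, with each CpG in capitals.

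Itgb5 (chr16:33829415-33829664, plus strand): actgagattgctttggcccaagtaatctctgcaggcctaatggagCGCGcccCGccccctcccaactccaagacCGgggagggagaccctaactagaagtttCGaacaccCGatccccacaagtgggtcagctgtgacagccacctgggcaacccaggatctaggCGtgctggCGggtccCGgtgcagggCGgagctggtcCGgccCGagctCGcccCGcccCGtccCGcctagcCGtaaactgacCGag

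Itgav (chr2:83724147-83724396, plus strand): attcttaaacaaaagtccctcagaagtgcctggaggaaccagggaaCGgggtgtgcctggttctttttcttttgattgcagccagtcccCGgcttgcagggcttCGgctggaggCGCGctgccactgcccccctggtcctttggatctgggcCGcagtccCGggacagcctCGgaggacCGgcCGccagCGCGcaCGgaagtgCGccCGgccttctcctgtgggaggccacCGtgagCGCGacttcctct

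Itgb1 (chr8:128685404-128685653, plus strand): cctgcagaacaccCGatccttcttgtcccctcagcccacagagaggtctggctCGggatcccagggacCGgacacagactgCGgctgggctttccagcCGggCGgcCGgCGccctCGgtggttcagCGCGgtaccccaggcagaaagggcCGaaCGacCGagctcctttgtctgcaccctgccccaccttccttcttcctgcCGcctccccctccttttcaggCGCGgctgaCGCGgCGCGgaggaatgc

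Lama2 (chr10:27616943-27617192, minus strand): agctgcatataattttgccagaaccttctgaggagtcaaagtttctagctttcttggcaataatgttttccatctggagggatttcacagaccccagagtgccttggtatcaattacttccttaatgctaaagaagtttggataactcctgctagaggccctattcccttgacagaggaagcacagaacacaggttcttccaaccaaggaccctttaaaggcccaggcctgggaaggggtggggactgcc

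Itga3 (chr11:95069199-95069448, minus strand): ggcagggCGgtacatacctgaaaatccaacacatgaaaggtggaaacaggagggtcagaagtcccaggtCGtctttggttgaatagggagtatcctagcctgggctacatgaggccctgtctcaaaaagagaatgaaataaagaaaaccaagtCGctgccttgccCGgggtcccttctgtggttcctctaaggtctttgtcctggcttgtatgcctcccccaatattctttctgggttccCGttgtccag

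The printed windows of the 3 higher integrins held 18 (Itgb5), 18 (Itgav) and 21 (Itgb1) CpGs. The median was 6 over all 32851 RefSeq windows of this length, of which 21.7% held at least 18 CpGs and 16.3% at least 21. The Lama2 window held 0 CpGs and the Itga3 window 5. Both belong to RefSeq starts inside the annotated genes, so each shows only 1 of the places where transcripts may begin. The other Itga3 window, not printed, held 22 CpGs, and the windows of Lamb3, called higher, held 2 and 3. Lama5 and Itga8, neither of them called, had windows with 19 and 18. High and low CpG counts thus occurred with either direction and without a call. With a GC content of at least 50% and an observed over expected CpG ratio of at least 0.6, 31.0% of all windows were CpG-rich, as were 7 of the 26 windows of the set. Those 7 belonged to Itgb5, Itgav, Itgb1, Lamb1, Itga3, Itga8 and Itgb6, where Itga3 (the window printed above) and Itgb6 each have a further window that was not CpG-rich. Itga3 fell in Mutant, the first 4 rose, and the last 2 were not called, so CpG-rich windows occurred with either direction. The E-box CAGCTG, which reads the same on both strands and shares no base with a CpG, was in 6 of the 26 windows and in 13.0% of all. The Itgb5 window holds it. Methylation of these windows was not measured in these files.

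Receptor genes were called in both directions in Mutant, while the 3 called laminin chains at 10 TPM or more were all called higher. For Lamb3, which is among these 3, mean TPM barely differed, at 37.5 and 38.8, so its value is uncertain. Per the authors' deposited table, calls fell on 11 of the 34 listed genes (32.4%), 7 higher and 4 lower, where 17.1% of all genes were called. At a mean of 10 TPM or more, 9 of 15 listed genes were called (7 higher and 2 lower), beside 35.3% of all genes at that level (15.6% higher and 19.7% lower). The 24 integrin subunits had 4 higher and 3 lower calls and a median estimate of 0.11 per the authors' deposited table. The 10 laminin chains had 3 higher calls (Lama2, Lamb1 and Lamb3), 1 lower call (Lama4) and a median of 0.48, and the median over all genes was 0.01. Over the 6 laminin chains with a mean of at least 1 TPM that median was 0.28, where Lama4 is left out because its fall brought its mean to 0.981 TPM. Of all genes, 9.02% were called higher and 8.11% lower.

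**Figure D1:**
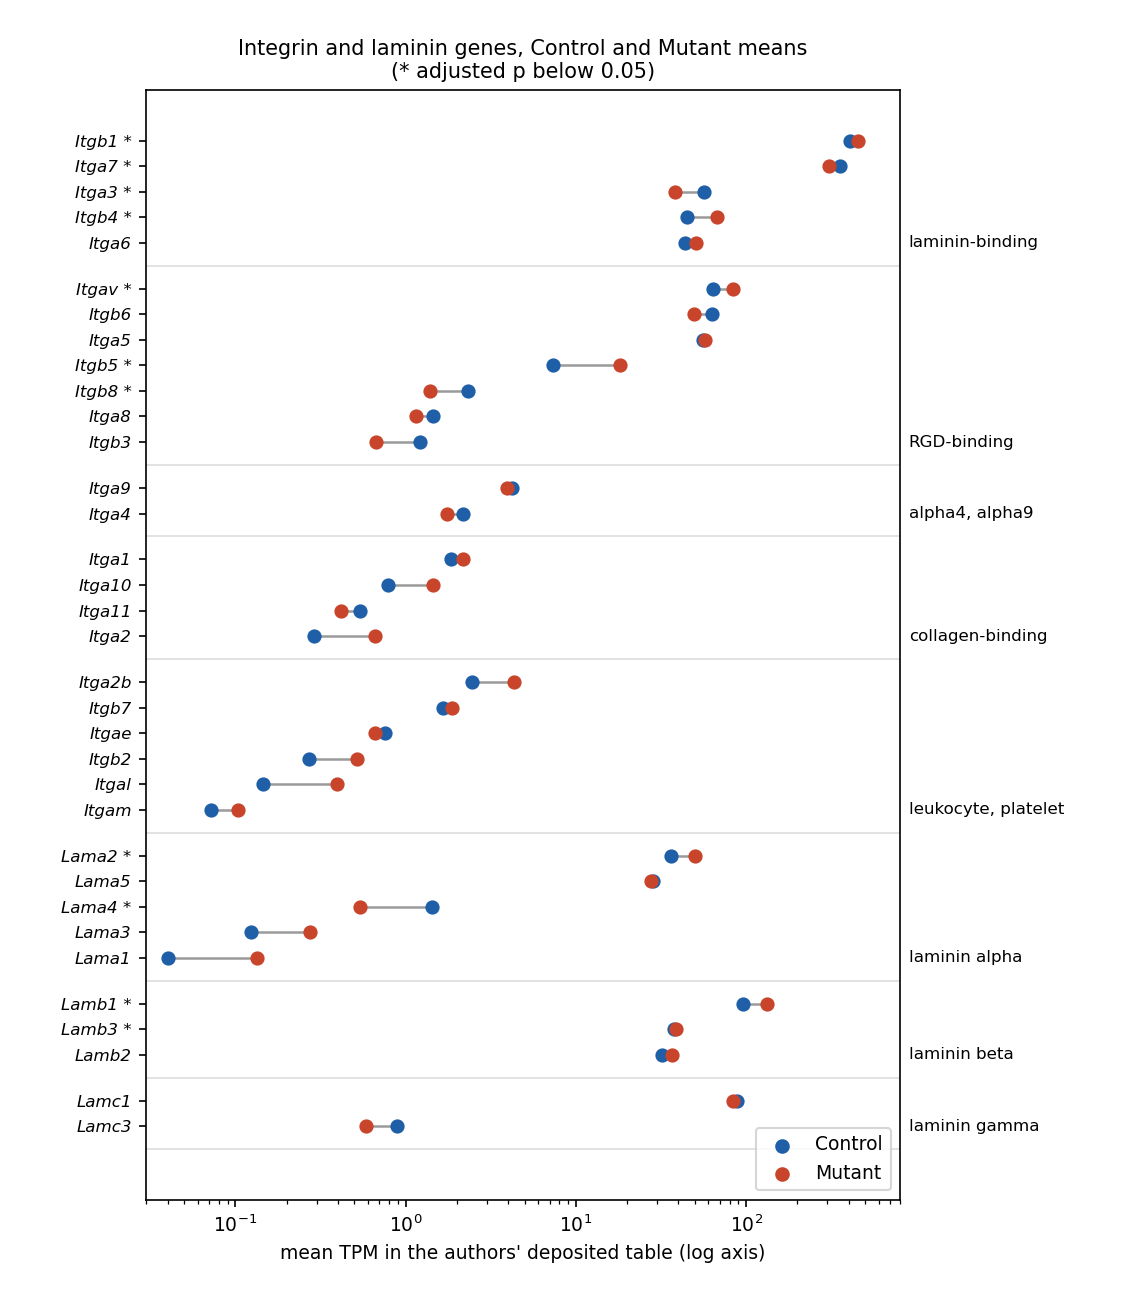
Mean TPM of the 34 listed genes in Control (blue) and Mutant (red) on a log axis, grouped by role, with asterisks at genes with an adjusted p below 0.05. Itgb1 and Itga7 stand above all other genes of the set in both groups, and the collagen-binding and leukocyte subunits all lie below 5 TPM.

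Laminin receptors come first. Itgb1 encodes the beta subunit shared by most matrix-binding integrins and was the most abundant gene of the set. It rose slightly, from 404 to 454 TPM (estimate 0.17, SE 0.05, adjusted p = 0.01) per the authors' deposited table. Its muscle partner Itga7, the alpha subunit that binds laminin on myoblasts and fibres, fell from 355 to 305 TPM (estimate −0.23, SE 0.06, adjusted p = 0.00074) per the authors' deposited table. Their 2 means therefore moved apart, with 0.879 Itga7 transcripts per Itgb1 transcript in Control and 0.673 in Mutant. Itga3, another laminin-binding alpha subunit, fell further, from 56.6 to 38.3 TPM (estimate −0.55, SE 0.09, adjusted p = 3.81e-09) per the authors' deposited table. The 95% interval of that estimate ran from −0.72 to −0.39.

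The receptor of Itga6 and Itgb4 binds laminin and anchors epithelial cells through hemidesmosomes. Itgb4 rose from 45.1 to 67.1 TPM (estimate 0.60, SE 0.08, adjusted p = 5.08e-11) per the authors' deposited table. Itga6 stood at 43.9 and 50.6 TPM and was not called (estimate −0.20, SE 0.14, adjusted p = 0.438) per the authors' deposited table. Its TPM ratio and its estimate have opposite signs, so no direction is given for it. The epithelial markers fixed for comparison summed to 2.01 TPM in Control and 5.95 TPM in Mutant over the 5 of 6 that were listed, without Krt14. Krt8 rose from 0.815 to 3.03 TPM, Krt18 stood at 1.12 and 2.15 TPM, and Krt5 rose from a Control mean of 0 to 0.575 TPM per the authors' deposited table. The part of such cells in the Itgb4 result was not tested. Summed over Itga3, Itga6 and Itga7, laminin-binding alpha subunits stood at 456 TPM in Control and 394 TPM in Mutant. Itga7 made up 78.0% and 77.4% of that sum.

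Receptors of fibronectin and other ligands with the RGD motif went both ways. Itgav, the alpha subunit of the vitronectin receptors, rose from 63.4 to 83.9 TPM (estimate 0.38, SE 0.06, adjusted p = 6.12e-09) per the authors' deposited table. Itgb5, a beta partner of Itgav that binds vitronectin, rose from 7.34 to 18.1 TPM (estimate 1.03, SE 0.15, adjusted p = 1.26e-09) per the authors' deposited table. This is a fold of 2.04 (95% interval 1.65 to 2.52), the largest rise among the called genes of the set. Itgb8, a beta partner of Itgav known for activating latent TGF-beta, fell from 2.33 to 1.40 TPM (estimate −0.78, SE 0.21, adjusted p = 0.00188) per the authors' deposited table. Of these beta subunits, Itgb5 was higher and Itgb8 lower, and Itgb1, which can also pair with Itgav, was slightly higher as given above.

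Itgb6 and Itgb3, also partners of Itgav, did not pass the threshold. Itgb6, best known from epithelia, was the more abundant at 62.7 and 49.2 TPM (estimate −0.19, SE 0.07, adjusted p = 0.057) per the authors' deposited table. Itgb3, a subunit of platelets and osteoclasts, stood at 1.22 and 0.669 TPM (estimate −0.90, SE 0.35, adjusted p = 0.0553) per the authors' deposited table. Both lie just outside the threshold, and their 95% intervals, −0.34 to −0.05 and −1.58 to −0.22, exclude 0 before adjustment. Itga5, the alpha subunit of the main fibronectin receptor, stood at 55.7 and 57.3 TPM (estimate −0.03, SE 0.08, 95% interval −0.19 to 0.13) per the authors' deposited table. The interval allows a change of at most 0.19 in size.

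The subunits of collagen receptors and of blood cells were low. Itga1, Itga2, Itga10 and Itga11, which pair with Itgb1 to bind collagens, had Control means between 0.29 and 1.84 TPM and 0 calls of 4 per the authors' deposited table. Their estimates ran from −0.36 (Itga11) to 0.83 (Itga10, adjusted p = 0.0998). Before adjustment, Itga10 was the one of them below 0.05, at 0.0201. Itga4 and Itga9, which bind Vcam1 and other ligands, stood at 2.18 and 1.76 TPM and at 4.22 and 3.94 TPM per the authors' deposited table, without a call. For Itga8 the means were 1.45 and 1.16 TPM per the authors' deposited table, also without a call.

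Leukocyte and platelet subunits gave 0 calls of 6, and 0 of them had an unadjusted p below 0.05, per the authors' deposited table. Itgb2, the beta subunit shared by leukocyte integrins, stood at 0.27 and 0.518 TPM (estimate 1.23, SE 0.73), and its partner Itgal at 0.146 and 0.396 TPM (1.25, SE 0.70), per the authors' deposited table. Itgam had 0.072 and 0.104 TPM under its own identifier per the authors' deposited table. A second identifier listed there as Itgam belongs in GENCODE M21 to Gm49368, a gene overlapping Itgam on the same strand, and was not counted. Macrophage and leukocyte markers summed to 34.4 TPM in Control and 115 TPM in Mutant over the 8 of 10 listed, with 2 higher and 0 lower. Laptm5 made up most of it (25.1 to 84.8 TPM), and Adgre1 and Tyrobp were not listed per the authors' deposited table. The part of such cells in the leukocyte subunits was not tested. The platelet subunit Itga2b stood at 2.46 and 4.33 TPM (estimate 0.20, SE 0.49) per the authors' deposited table, beside 0.662 and 1.18 TPM for the summed platelet markers outside the set. Itgae, of intraepithelial T cells, stood at 0.759 and 0.661 TPM (estimate −0.21, SE 0.46) per the authors' deposited table. Itgb7, its beta partner, stood at 1.66 and 1.87 TPM (1.26, SE 0.71) per the authors' deposited table.

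Among the ligands, laminin chains of the muscle basement membrane rose in part. Lama2, the alpha chain of merosin and the gene of a congenital muscular dystrophy, rose from 36.1 to 49.8 TPM (estimate 0.50, SE 0.07, adjusted p = 8.72e-10) per the authors' deposited table. Lamb1, a beta chain that assembles with it, rose from 96.2 to 133 TPM (estimate 0.45, SE 0.07, adjusted p = 4.63e-09) per the authors' deposited table. Lamc1, the gamma chain of nearly all muscle laminins, stood at 88.0 and 83.7 TPM (estimate −0.02, SE 0.04, adjusted p = 0.926) per the authors' deposited table. Its 95% interval, −0.10 to 0.07, does not reach those of Lama2 (0.36 to 0.65) and Lamb1 (0.31 to 0.58), and the difference itself was not tested. Lamb1 thus went from 1.09 to 1.59 transcripts per Lamc1 transcript.

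The remaining alpha chains differed in level more than in change. Lama5, an alpha chain of fetal and adult basement membranes, stood at 28.5 and 27.7 TPM (estimate −0.06, SE 0.07) per the authors' deposited table and was not called. Lama4, an alpha chain of vessels and of developing muscle, fell from 1.42 to 0.543 TPM (estimate −1.16, SE 0.37, adjusted p = 0.0138) per the authors' deposited table. Endothelial markers summed to 29.2 TPM in Control and 24.2 TPM in Mutant. Fabp4 (9.14 and 9.66 TPM) and Egfl7 (6.10 and 5.41 TPM) were not called, and Pecam1 fell from 3.91 to 2.25 TPM, per the authors' deposited table. Of the 10 endothelial markers, 1 rose and 2 fell, and the part of such cells in the Lama4 result was not tested. Lama1 (0.04 and 0.133 TPM) and Lama3 (0.124 and 0.275 TPM) were scarce and not called per the authors' deposited table. Lama2 made up 54.5% of the summed alpha chain TPM in Control and 63.5% in Mutant, and Lama5 43.1% and 35.3%.

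Lamb3 is a beta chain best known from epithelial basement membranes. It was called higher (estimate 0.85, SE 0.11, adjusted p = 4.42e-12) although its mean TPM barely differed, at 37.5 and 38.8, per the authors' deposited table. The estimate and the TPM therefore disagree on the size. In GENCODE M21 the gene overlaps Hsd11b1 and G0s2, among others, on the other strand, and 4930570N18Rik and Gm37691 on its own. The sources used here do not give the strand setting of the counting, which would not separate genes on the same strand. The Lamb3 value is therefore uncertain. Lamb2, the beta chain of synaptic laminins, stood at 32.1 and 36.5 TPM (estimate 0.11, SE 0.08) per the authors' deposited table, without a call. Lamc3 stood at 0.896 and 0.587 TPM (estimate 0.84, SE 0.45) per the authors' deposited table, also without a call. The TPM ratio and the estimate of Lamc3 have opposite signs, so no direction is given for it. In the laminin medians its positive estimate is the value used.

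**Figure D2:**
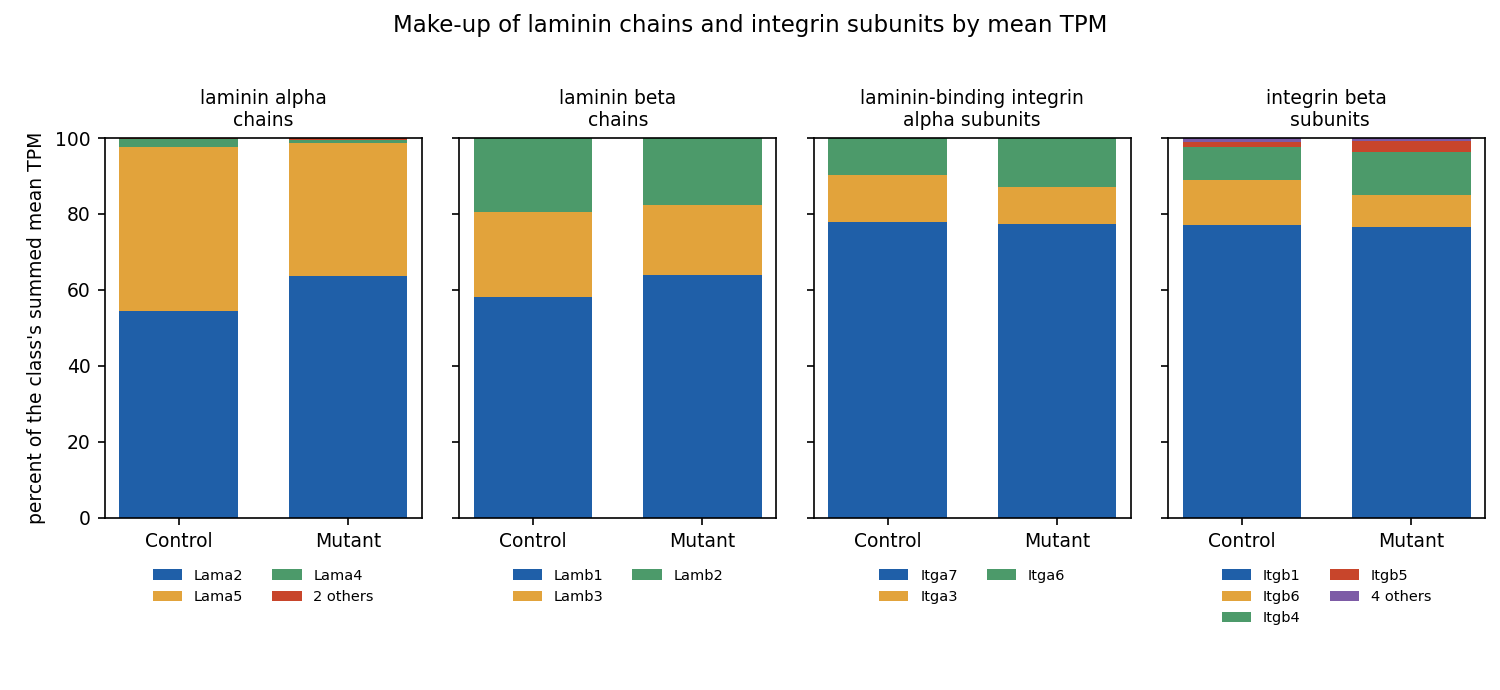
Share of each gene in the summed mean TPM of its class, in percent, for Control and Mutant, with genes under 1% in both groups pooled as others. Lama2 takes 54.5% of the alpha chain sum in Control and 63.5% in Mutant, while Itga7 keeps 78.0% and 77.4% of the laminin-binding alpha sum.

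Sums over classes differed in direction among receptors, while among ligands the 1 lower sum rests on a gene that was not called. Summed laminin alpha chains stood at 66.2 TPM in Control and 78.4 TPM in Mutant, and beta chains at 166 and 208 TPM. Gamma chains stood at 88.9 and 84.3 TPM, of which Lamc1, not called (estimate −0.02, SE 0.04), made up 99.0% and 99.3%. No direction is therefore given for them. Laminin-binding alpha subunits (456 and 394 TPM) were lower in Mutant, while integrin beta subunits (525 and 592 TPM) were higher. These sums come from the authors' means and carry no error. Of the 5 laminin-binding subunits 2 rose and 2 fell, and of the 8 beta subunits listed 3 rose and 1 fell, per the authors' deposited table.

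The second gene table compares PT with PUT, abbreviations that the labels do not explain, so the arms were given no group. Read in the order of these names, as PT over PUT, the log2 fold change of Uhrf1 was −4.00 (SE 0.27) per the authors' deposited table. On that reading PT is the arm with less Uhrf1. The reading is an assumption, and every higher or lower value given for PT rests on it. The sources used here do not say whether the second gene table shares libraries with the first table. Its changes are broad, with 47.2% of all genes called and a median log2 fold change of 0.14 over all genes, or −0.01 over genes with a mean of at least 10 normalised counts. Of the 33 listed genes of the set 11 were called, 5 higher and 6 lower in PT, a share of 33.3% that is below the background. Of all genes 25.1% were higher and 22.1% lower. At a mean of 10 or more the set had 11 calls of 30, beside 61.1% of all genes (29.4% higher and 31.6% lower). Integrin subunits had 4 higher and 3 lower calls and laminin chains 1 higher and 3 lower, with medians of −0.06 and −0.10.

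**Figure D3:**
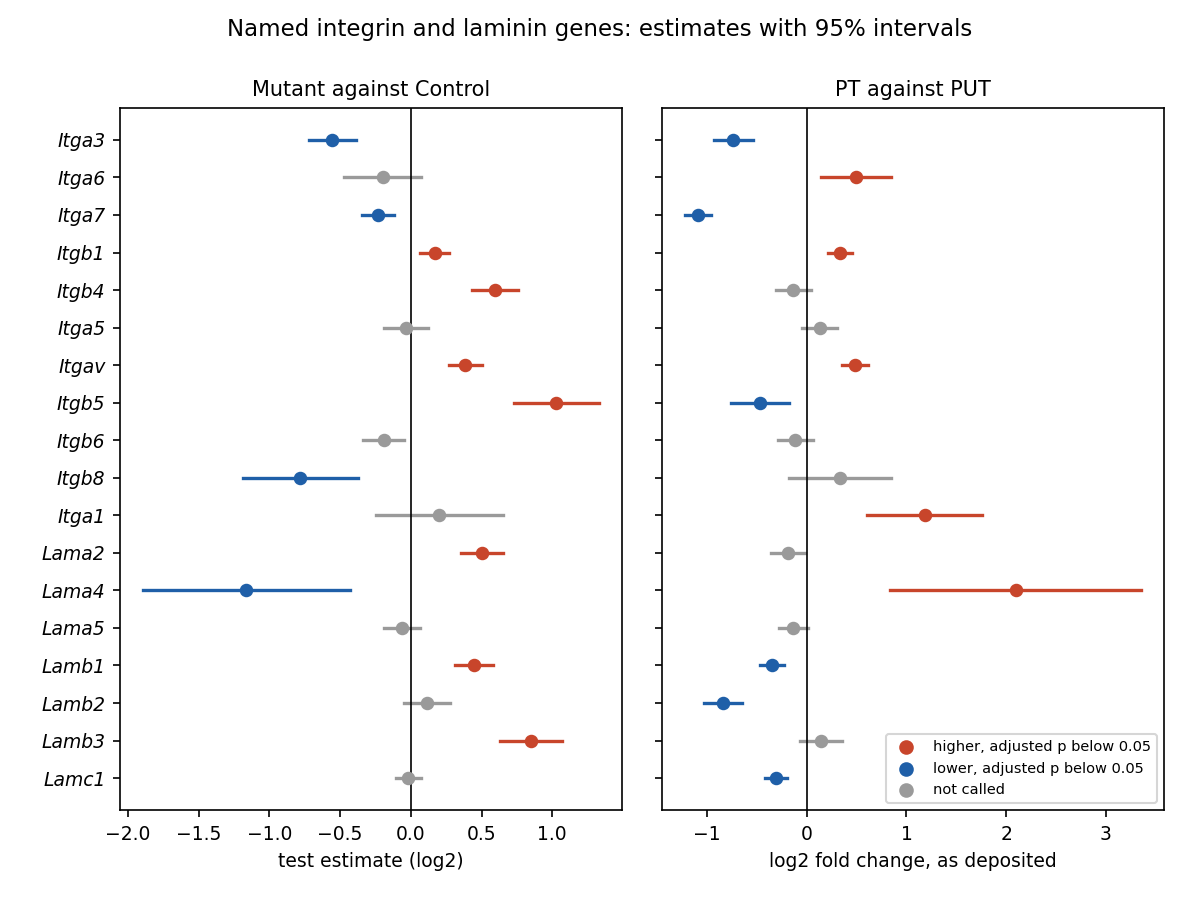
Estimates (log2) with 95% intervals for the 18 named genes, Mutant against Control on the left and PT against PUT on the right, red for called higher, blue for called lower and grey for not called. Itga3 and Itga7 lie left of 0 in both panels, whereas Itgb5 and Lamb1 lie right of 0 on the left and left of 0 on the right.

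In PT the laminin receptors Itga7 (−1.09, SE 0.07, adjusted p = 5.07e-58) and Itga3 (−0.74, SE 0.10, adjusted p = 1.04e-12) were lower per the authors' deposited table. Itgb1 (0.33, SE 0.06, adjusted p = 3.94e-07) and Itgav (0.48, SE 0.07, adjusted p = 6.52e-12) were higher per the authors' deposited table. Centred on the median of all genes, the Itgb1 value was 0.19. For these 4 genes the sign was that of the Mutant comparison. Itga7 had the lowest log2 fold change of the set in PT, against −0.23 in Mutant. The size of the 2 changes was not compared by a test.

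Other genes of the set differed between PT and Mutant in sign or in whether they were called. Itgb5 was lower (−0.47, SE 0.15, adjusted p = 0.0042) and so was Lamb1 (−0.35, SE 0.06, adjusted p = 6.47e-08) per the authors' deposited table, where both rose in Mutant. Lama4 was higher (2.10, SE 0.64, adjusted p = 0.00318, at a mean of 11.1 normalised counts) per the authors' deposited table, where it fell in Mutant. Of the 9 endothelial markers listed for PT, 3 were called higher and 0 lower, and their part in the Lama4 value was not tested. Lama2 (−0.19, SE 0.08, adjusted p = 0.0534) and Itgb4 (−0.14, SE 0.09, adjusted p = 0.208) were not called in PT per the authors' deposited table. Itgb8 (0.33, SE 0.26) and Lamb3 (0.14, SE 0.11) were not called either, per the authors' deposited table. Called in PT but not in Mutant were Lamb2 (−0.84, SE 0.10, adjusted p = 1.34e-16), Lamc1 (−0.31, SE 0.06, adjusted p = 4.68e-07), Itga6 (0.49, SE 0.18, adjusted p = 0.0138) and Itga1 (1.18, SE 0.30, adjusted p = 0.000221) per the authors' deposited table for PT.

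Genes outside the set that work with these receptors mostly rose where they were called in Mutant. Beside the shares called in each list stand 17.1% of all genes, 27.6% of those with mean TPM of 1 or more and 35.3% of those at 10 or more. Of 37 genes of the integrin adhesion machinery 12 rose and 1 fell (35.1% called), with a median estimate of 0.05, per the authors' deposited table. Ptk2b, a focal adhesion kinase relative, rose from 7.13 to 19.1 TPM (1.42, SE 0.12, adjusted p = 1.07e-31) per the authors' deposited table. Tln2, a talin that links integrin tails to actin, rose from 43.2 to 66.2 TPM (0.66, SE 0.06) and Tgfb1i1, a paxillin relative, from 25.3 to 36.4 TPM (0.58, SE 0.12) per the authors' deposited table. The tensins Tns2 (0.37, SE 0.11) and Tns1 (0.24, SE 0.05) and the Ilk-associated Rsu1 (0.35, SE 0.10) rose less per the authors' deposited table. The gene that fell was Bcar1, an adhesion scaffold singled out here for its value (193 and 170 TPM per the authors' deposited table).

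Of 23 other basement membrane genes 7 rose and 0 fell (30.4% called), with a median of 0.19, per the authors' deposited table. Col18a1, a basement membrane collagen, rose from 19.9 to 73.8 TPM (1.89, SE 0.28, adjusted p = 3.42e-10) per the authors' deposited table. Nid1, which bridges laminin and collagen IV, rose from 20.5 to 44.9 TPM (1.11, SE 0.31, adjusted p = 0.00306) per the authors' deposited table. Npnt, a matrix ligand of Itga8, rose from 45.7 to 87.6 TPM (0.91, SE 0.08) and Ntn4, a laminin-related netrin, from 35.7 to 53.0 TPM (0.55, SE 0.09) per the authors' deposited table. Smoc1 (1.03, SE 0.28) and Sparc (0.19, SE 0.06) also rose per the authors' deposited table.

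Of 21 listed genes among other integrin ligands 7 rose and 2 fell (42.9% called), with a median of 0.27, per the authors' deposited table. Fibronectin (Fn1) rose from 44.3 to 119 TPM (1.32, SE 0.25), tenascin-C (Tnc) from 22.4 to 56.4 TPM (1.34, SE 0.34) and osteopontin (Spp1) from 785 to 1218 TPM (0.62, SE 0.14) per the authors' deposited table. Tgfb1, whose latent form binds Itgav receptors, rose from 20.2 to 30.1 TPM (0.72, SE 0.12) per the authors' deposited table. Vcam1, the ligand of Itga4, fell from 75.8 to 57.9 TPM (−0.38, SE 0.07) and Col1a2 from 51.3 to 31.9 TPM (−0.70, SE 0.23) per the authors' deposited table. Fibroblast markers summed to 195 TPM in Control and 327 TPM in Mutant, with Gsn rising from 110 to 229 TPM, Thy1 at 34.5 and 28.9 TPM and Ly6a at 15.1 and 22.4 TPM per the authors' deposited table. Of those 12 markers 1 rose and 0 fell, and their part in these results was not tested.

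Laminin receptors that are not integrins were counted last. Of 20 listed genes of that list, which includes dystroglycan glycosylation, 5 rose and 1 fell (30% called), with a median of 0.04, per the authors' deposited table. Sgca, a sarcoglycan of the dystrophin complex, rose from 32.6 to 71.9 TPM (1.05, SE 0.13) and Bcam, a receptor of Lama5 laminins, from 5.07 to 9.75 TPM (0.80, SE 0.19) per the authors' deposited table. Sdc1, a heparan sulfate proteoglycan, rose from 85.6 to 119 TPM (0.41, SE 0.07) per the authors' deposited table. Sgce (0.42, SE 0.16) and utrophin, Utrn (0.15, SE 0.05), rose per the authors' deposited table.

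**Figure D4:**
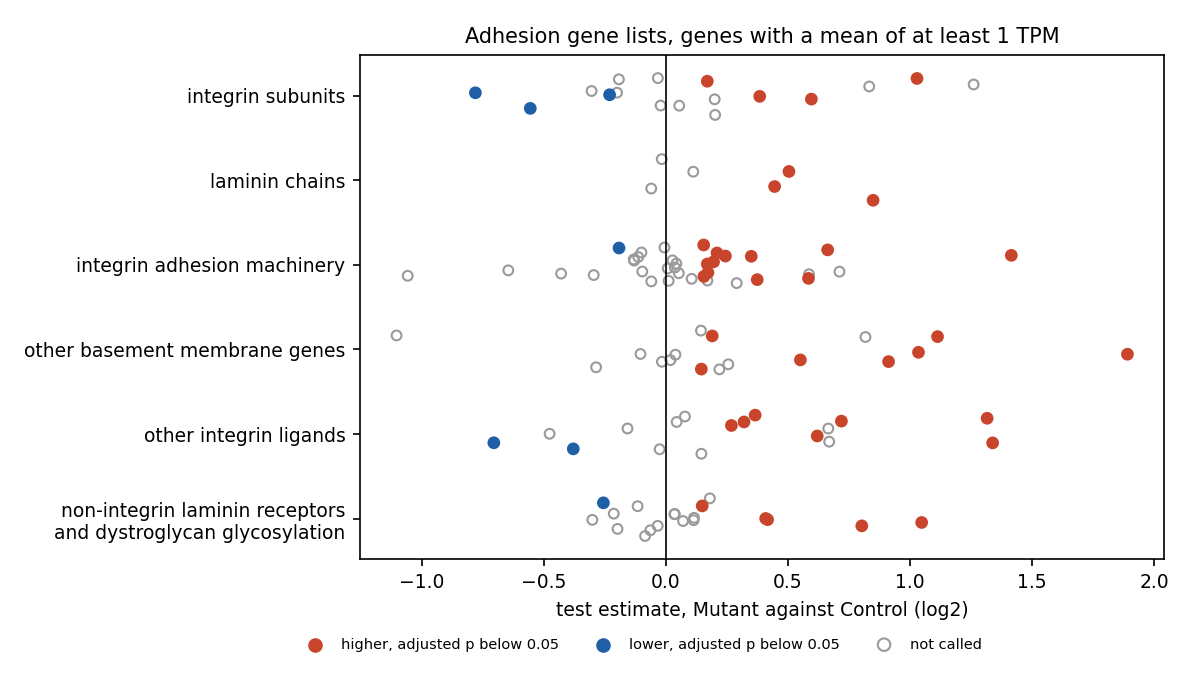
Test estimates (log2) of Mutant against Control for genes of the set with mean TPM of 1 or more and of 4 related lists, filled where called (red higher, blue lower) and open where not. Calls lie on both sides of 0 for integrin subunits and only to the right for laminin chains and other basement membrane genes at this level, which leaves out Lama4, called lower, because its fall brought its mean to 0.981 TPM.

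In PT, 12 genes of the adhesion machinery were higher and 10 lower of 36 listed, and 5 basement membrane genes higher and 5 lower of 23, per the authors' deposited table. For the other ligands the counts were 9 higher and 3 lower of 19, and for the other laminin receptors 7 and 7 of 20. These shares of called genes, 61.1%, 43.5%, 63.2% and 70%, stand beside the background of 47.2%.

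Positions on GRCm38 follow GENCODE M21 for 5 called genes of the set. Itgb5 (ENSMUSG00000022817) spans bases 33829665 to 33949338 of chromosome 16 (plus strand), and Lamb1 (ENSMUSG00000002900) bases 31265234 to 31329644 of chromosome 12 (plus strand). Lama2 (ENSMUSG00000019899) spans bases 26980036 to 27619758 of chromosome 10 (minus strand), and Itga3 (ENSMUSG00000001507) bases 95044474 to 95076801 of chromosome 11 (minus strand). Itga7 (ENSMUSG00000025348) spans bases 128933818 to 128958282 of chromosome 10 (plus strand), where it overlaps Mettl7b on the other strand and Gm25494 on its own. Of these 5, Itgb5, Lamb1 and Itga3 overlap no other annotated gene. Lama2 overlaps several predicted genes on both strands, Itgb4 overlaps B230344G16Rik and Itgav overlaps Gm13684 and Dnmt3l-ps1 on the other strand, and reads of such pairs could be shared where counting ignores strand.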

How the data were processed

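Of the labels' 9 libraries, gene values reached the files as comparisons and repeat values as counts. Tools named in the submitters' processing notes, with no role or order, are featureCounts 2.0.1, DESeq2 and Trim Galore 0.6.6 for every library, STAR 2.7.6a for Control and Mutant and HISAT2 2.2.1 for Cre Control. The build is GRCm38, with mm10 also named for Control and Mutant. The first table holds mean TPM that the authors deposited, and its log2 column, as deposited, is log2 of (Mutant mean TPM plus 1) over (Control mean TPM plus 1) to within 4.79e-08. Its standard error belongs to another estimate, the deposited statistic (a score of the authors' test) times that error, which is used here as the test estimate. In all, 4 genes lack a statistic. The second table holds, per the file headers, mean normalised counts (a signal averaged by the authors), log2 fold changes, standard errors, statistics, p-values and adjusted p-values. The authors deposited repeat counts as whole numbers, of which only shares were computed.

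Genes were matched by symbol. No model was refitted, since no gene value per library was at hand. Intervals are the estimate ± the 95% normal range of its error. The deposited adjusted p-values are those of the Benjamini-Hochberg method over all genes of each table, within 0.000884. The call rule alone was checked on simulated statistics with known changes, drawn with the deposited standard errors. Such a check cannot show whether the deposited calls are right. Sums and ratios of TPM were computed from the means with Python 3.11.15 and pandas 2.3.3. Named in full are genes called in either table or with at least 10 TPM in either group. Other lists name up to 6 called genes of at least 1 TPM by size. Marker lists name up to 3 of their highest genes, and Myog and Myh3 were added for their values. The genes and lists were chosen with earlier results of these data known. Alternatives were the threshold, the genes adjusted over, the level minimum, a minimum size, the TPM ratio and centring. Some genes of the related lists entered the counts but are not reported here by name.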

Additional observations from a re-analysis of the deposited data

How the results depend on the processing

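The 11 calls in Mutant numbered 9 at a threshold of 0.01 (without Itgb1 and Lama4), 11 with p-values adjusted over genes of at least 1 TPM (Itgb6 in place of Lama4, which that minimum leaves out), 9 among genes of at least 10 TPM and 11 over every deposited p-value. With an estimate of at least 0.5 in size as well, 7 remained called in Mutant, and 5 of the 11 in PT. The other alternatives gave 10 or 11 calls in PT. The laminin median in Mutant was 0.48 over all listed chains and 0.28 with a mean of at least 1 TPM. Of the 18 named genes, Itga5 (0.041 by the log2 TPM ratio with a pseudocount of 1 and 0.042 with 0.1) and Itga6 (0.20 and 0.20) had signs opposite to their estimates, neither being called. Centring PT on its median over all genes moved Itga5 to −0.015 and changed 7 other values by over 1.5 times, to 0.19 for Itgb1, 0.19 for Itgb8, 0.00033 for Lamb3, −0.33 for Lama2, −0.28 for Itgb4, −0.26 for Itgb6 and −0.28 for Lama5. With every name starting with IAP, the repeat shares were 0.80%, 0.991% and 15.0% in Control 1, Control 2 and the library labelled Control 3, and 10.6%, 12.7% and 18.4% in Mutant. Leaving out single libraries was not run for genes, which have no value per library. No paired analysis was possible because the gene tables carry no column per library or replicate number. Standard errors reached 1.29 (Itgam) among genes under 1 TPM, and what depth limits is unknown, since depth per library is not known for genes.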
